A study of Mus musculus with 12 samples.

Results

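The regions described here are 201 loci at which Stat3 ChIP-seq read peaks of fibroblasts that had received no cytokine recurred in more than 1 condition. They were chosen by the deposited summit positions: the 1048 summits of the 4 lists made without LIF were pooled, summits on a chromosome were chained into loci where gaps were 200 bp or less, and loci with summits from 2 or more lists were kept. The 1048 summits formed 764 loci, of which 201 (26.3%, exact 95% interval 23.2 to 29.6%) were recurrent and 563 came from 1 list. The whole series held 2136 summits, the other 1088 being those of LIF-treated cells. As the positions chose the members, the number of lists, the spacing of summits and the scores are given below as descriptions, with no test.

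Mouse embryonic fibroblasts (MEFs) from Stat3 fl/fl embryos were made Stat3-null with a Cre virus and transduced with wild-type Stat3 (-/-WT) or with Stat3-C3S (-/-C3S), a redox-insensitive form with cysteines of the DNA-binding domain substituted. Both were sorted polyclonal lines expressing Stat3 from a viral (MSCV) vector, and all cells were kept overnight in low serum. The 4 lists came from -/-WT cells under basal conditions, -/-WT cells treated with hydrogen peroxide for 1 h, -/-C3S cells under basal conditions and -/-C3S cells treated with peroxide for 1 h, and the fifth from -/-WT cells treated with the cytokine LIF (10 ng/ml for 45 min). The labels give the peroxide dose as 100 mM and the study's methods give the same figure in µM. Each condition had 2 ChIP replicates that were called together into 1 list, which leaves no error between replicates for any value given here. Differences are between lists, not between conditions. Input DNA and IgG libraries, both of -/-WT cells, were not analysed here.

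Stat3 is a transcription factor that cytokines such as LIF activate through Jak kinases. The dimer then binds GAS-like elements, among them the sis-inducible element (SIE). Much of the mouse genome consists of interspersed repeats, of which LINE-1 (L1) retrotransposons are the autonomous, protein-coding class. A full-length L1 carries a 5′ promoter region, a first reading frame (ORF1) for an RNA-binding protein, a second (ORF2) for an endonuclease and reverse transcriptase, and a 3′ end. Most genomic copies are truncated at the 5′ end. A short read from a young L1 can match many places in the genome about equally well.

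The label of the loci as repeat-rich was checked against the reference first. In a window reaching 80 bp either side of the summit, all but 2 of the 201 recurrent loci (99%) had every base repeat-masked, that is, in lower case in the reference sequence. Over all 764 loci this share was 96.9%, and over all tiles of the same width in the genome it was 13.5%. The exceptions were the loci at Stat3, with 13.0% of bases masked, and at Cyp2c53-ps, with 94.4%.

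The repeat could be named from its sequence. The surroundings of the recurrent loci were compared with one another, and the region that matched the most recurrent windows was chosen. This region, on chromosome 6 around the recurrent locus at Far2, matched 195 of the 201 windows, its own among them. It held an element of 7295 bp on the minus strand of chr6:147897088-147904382 (mm10), with a first reading frame of 371 codons and a second of 1281 codons that contained the catalytic motif of a reverse transcriptase. This is the arrangement of a full-length L1, and the element is called so below. The name rests on the reading frames, since no repeat annotation was used here. Of the 201 recurrent loci, 192 (95.5%, exact 95% interval 91.7 to 97.9%) matched this element at 80% identity or more over at least 60% of the window, with a median identity of 97.5% and a range of 83.2 to 100%. The 192 include the Far2 locus, which lies in the element itself and alone gave 100%. Among loci from 1 list, 514 of 563 (91.3%) matched the element. None of the 1088 LIF summits did, which allows a share of up to 0.276% by counting error. The LIF libraries had more unique reads than the others, and the part of depth in this contrast was not tested. Matches to the element covered 9.20% of the bases of the genome. The comparison with this element was chosen after the data had been seen and is given without a test.

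Several of the highest-ranked loci lay in the same short stretch of ORF2. The 5 recurrent loci with a summit within 30 bp, on the element, of that of the first-ranked locus (Gm28905) are shown over 81 bases. This stretch was picked after the values had been seen. Bases are in the sense direction of the element, with capitals where they differ from the chromosome 6 element. As the loci were picked by their place on the same repeat, their likeness follows from that choice. The coordinates, in the same order, were chr6:147898488-147898568 (minus strand), chr10:9987339-9987419 (minus), chr6:122222824-122222904 (minus), chr5:41592470-41592550 (plus), chrX:82537022-82537102 (plus) and chrX:166740498-166740578 (plus).
Element, positions 5815 to 5895: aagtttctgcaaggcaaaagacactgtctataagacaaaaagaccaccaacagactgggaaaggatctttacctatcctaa
Gm28905 locus: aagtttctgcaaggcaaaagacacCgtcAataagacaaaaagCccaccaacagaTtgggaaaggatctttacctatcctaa
Mug-ps1 locus: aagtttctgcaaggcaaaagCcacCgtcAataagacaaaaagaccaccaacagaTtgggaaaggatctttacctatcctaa
Rab28 locus: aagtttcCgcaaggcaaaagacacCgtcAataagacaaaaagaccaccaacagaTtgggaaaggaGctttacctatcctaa
Gm14740 locus: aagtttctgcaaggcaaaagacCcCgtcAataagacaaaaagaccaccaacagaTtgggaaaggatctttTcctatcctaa
Gm1720 locus: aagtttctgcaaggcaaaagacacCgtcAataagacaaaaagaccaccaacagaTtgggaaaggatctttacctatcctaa

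The 5 loci differed from the element at 3 shared positions, and only 6 further positions set 1 locus apart from the rest. Their scores nevertheless ranged widely. The Gm28905 locus had the highest score of both lists that contained it, 92.7 in -/-WT basal cells and 113 in -/-WT cells with peroxide, with the summit at the same base, chr10:9987379, in both. The Mug-ps1 locus scored 58.7 in -/-WT cells with peroxide and 46.2 in -/-C3S basal cells. The Gm1720 locus, with nearly the same bases, scored 14.8 in -/-WT cells with peroxide and 5.78 in -/-C3S basal cells, ranks 146 of 450 and 121 of 145.

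The recurrent loci were spread over the possible combinations of lists. There were 135 loci with summits from 2 lists, 49 from 3 and 17 from all 4. The pair of -/-WT lists alone gave 57 loci, the largest combination, and both peroxide lists alone gave 31. The 3 lists other than -/-C3S basal, alone, gave 21. The pair of -/-C3S lists alone gave 8, and the combination of -/-WT basal with both -/-C3S lists gave 4. No locus had more than 1 summit of the same list.

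**Figure D1:**
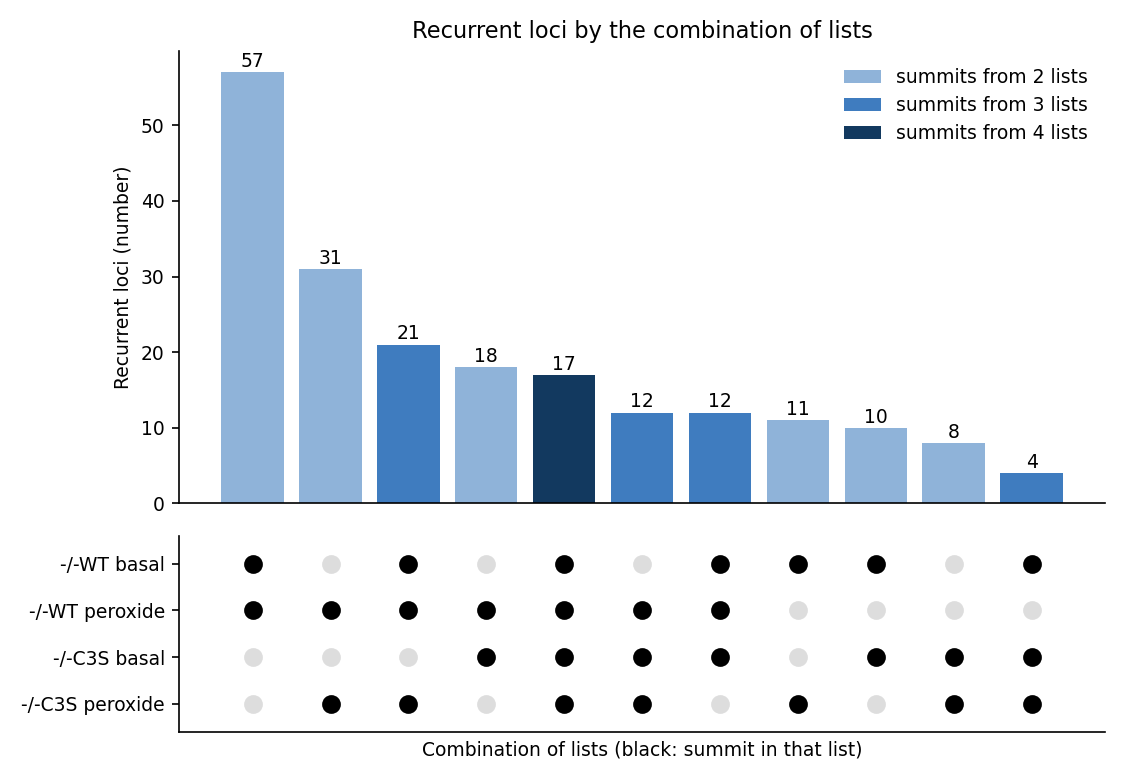
Number of recurrent loci (y axis) for each combination of the 4 lists (columns), with black dots below marking the lists that hold a summit and shades of blue the number of lists. The 2 -/-WT lists alone gave 57 loci, and 17 loci had a summit in all 4 lists.

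Summits from both forms of Stat3 met at 136 loci (67.7%), while 57 held -/-WT summits only and 8 held -/-C3S summits only. A basal and a peroxide summit met at 160 loci (79.6%), 10 loci were from basal lists only and 31 from peroxide lists only. The lists differed in length, from 145 summits in -/-C3S basal to 223 in -/-C3S peroxide, 230 in -/-WT basal and 450 in -/-WT peroxide. The pair counts therefore make different shares of each list. The 107 loci shared by the -/-WT lists were 46.5% of the basal and 23.8% of the peroxide summits. The 81 loci shared by the peroxide lists were 18% of the -/-WT and 36.3% of the -/-C3S summits. The 41 loci shared by the -/-C3S lists were 28.3% of the basal and 18.4% of the peroxide summits.

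Recurrent loci made up a large part of the lists, above all among the best-scoring peaks. They held 132 of 230 -/-WT basal summits (57.4%), 168 of 450 -/-WT peroxide summits (37.3%), 81 of 145 -/-C3S basal summits (55.9%) and 104 of 223 -/-C3S peroxide summits (46.6%). The score is the number deposited with each summit, higher for a stronger peak within a list. Where scores of a locus from several lists are printed together below, each describes its own list. Their sizes are not comparable between lists. All of the 10 best-scoring -/-WT basal summits were in recurrent loci, as were 8 of 10 in -/-WT peroxide, 8 of 10 in -/-C3S basal and 6 of 10 in -/-C3S peroxide. With each list divided by score into 4 equal parts, the recurrent share from the best-scoring to the lowest-scoring part ran from 77.6 to 38.6% in -/-WT basal, from 57.5 to 23.2% in -/-WT peroxide and from 73.0 to 25% in -/-C3S basal. In -/-C3S peroxide the second part had the highest share, 69.6%, against 51.8% in the first and 23.6% in the last.

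Median scores of summits in recurrent loci and of the other summits of the list overlapped widely. They were 11.4 against 9.31 in -/-WT basal, with a range of 4.24 to 92.7 for recurrent and 1.96 to 23.5 for other summits. In -/-WT peroxide the medians were 14.5 and 10.5, with ranges of 2.40 to 113 and 2.40 to 67.4. In -/-C3S basal they were 12.1 and 8.35, and in -/-C3S peroxide 13.5 and 9.72. The -/-C3S lists each had a summit outside the recurrent loci that scored above all their recurrent ones, 53.1 against 46.2 in basal and 49.6 against 47.8 in peroxide. The highest summits of the -/-WT lists, in contrast, were recurrent.

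Where loci were shared, their scores were correlated between lists, with exceptions named further on. Spearman's rho between the scores was 0.668 over the 107 loci of the -/-WT lists, 0.747 over the 41 loci of the -/-C3S lists and 0.660 over the 81 loci of the peroxide lists. Across the other pairs it was 0.666 (43 loci of the basal lists), 0.671 (59 loci of -/-WT peroxide and -/-C3S basal) and 0.741 (53 loci of -/-WT basal and -/-C3S peroxide). These values are across loci of the same repeat family, which share sequence, and are descriptions only. The median difference between the within-list percentiles of a locus ran from 9.94 points for the -/-C3S lists to 15.7 points for the peroxide lists. Of 37 -/-WT basal and 44 -/-WT peroxide summits in the best-scoring part of their lists, 27 loci were in that part of both.

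**Figure D2:**
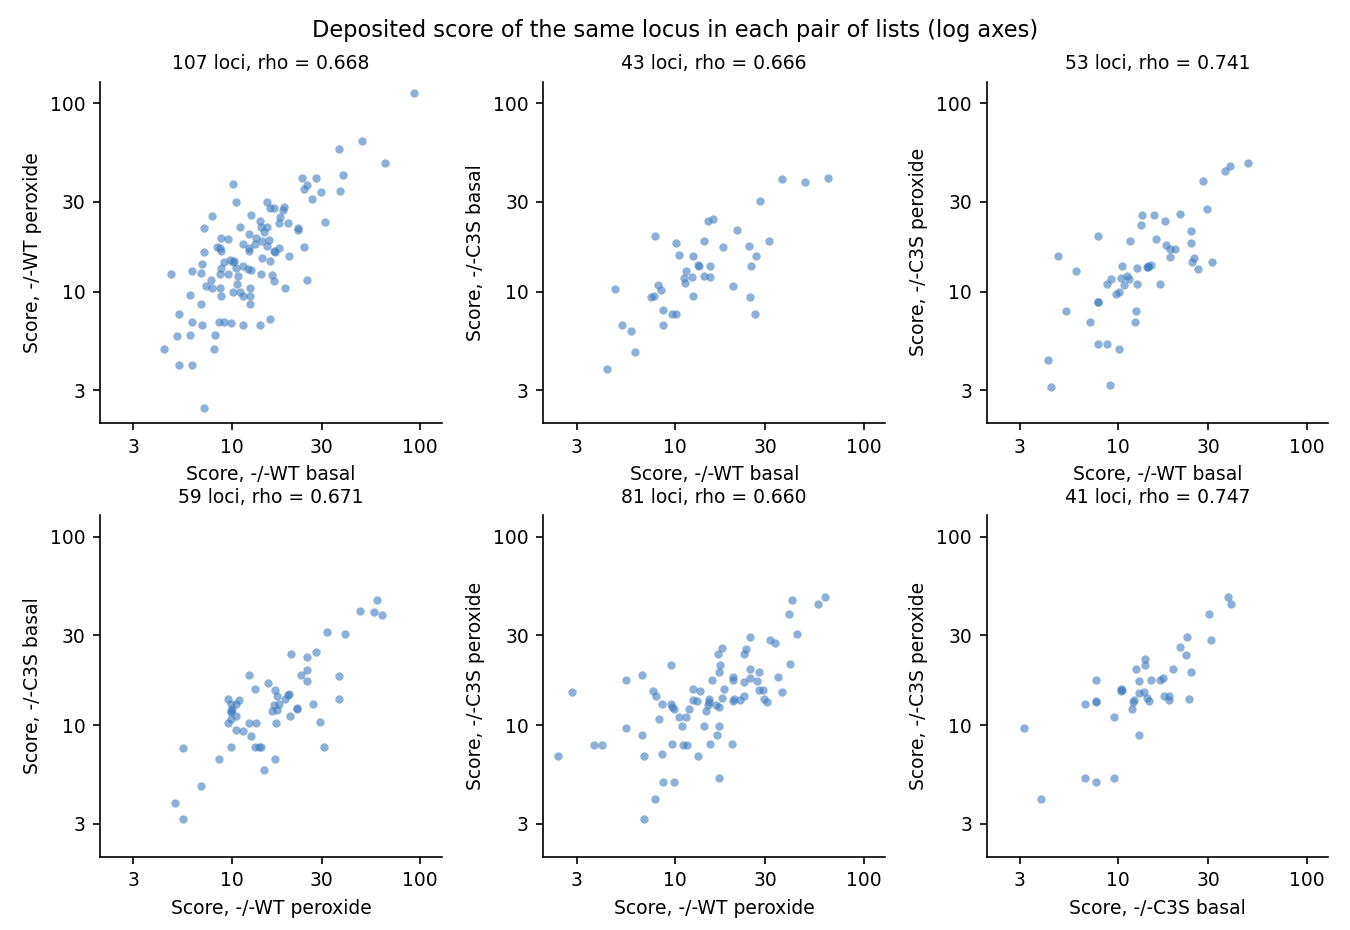
Deposited score of each shared locus in 1 list (x axis) against another (y axis), both on log scales, for the 6 pairs of lists, with points standing for loci. Spearman's rho ran from 0.660 to 0.747, with scatter around the trend in each panel.

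Summits of the same locus lay far closer together than the chaining rule required. Over the 384 pairs of summits within recurrent loci the median distance was 8 bp, 18 pairs (4.69%) fell on the same base, 218 (56.8%) were within 10 bp and 372 (96.9%) within 50 bp. The largest distance was 125 bp, below the limit of 200 bp. Loci had a median span of 13 bp, and 88 of 201 spanned 10 bp or less. The median distance differed little between pairs of lists, from 5 bp for the -/-C3S lists to 10 bp for the basal lists and for -/-WT peroxide with -/-C3S basal. The members just inside the rule had gaps of 125 bp (chromosome 14, 120200845 and 120200970), 103 bp and 95 bp. Just outside it were gaps of 284 bp (chromosome 8, 19759809 and 19760093), 446 bp and 460 bp, and there were 4 gaps of 201 to 1000 bp in all.

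**Figure D3:**
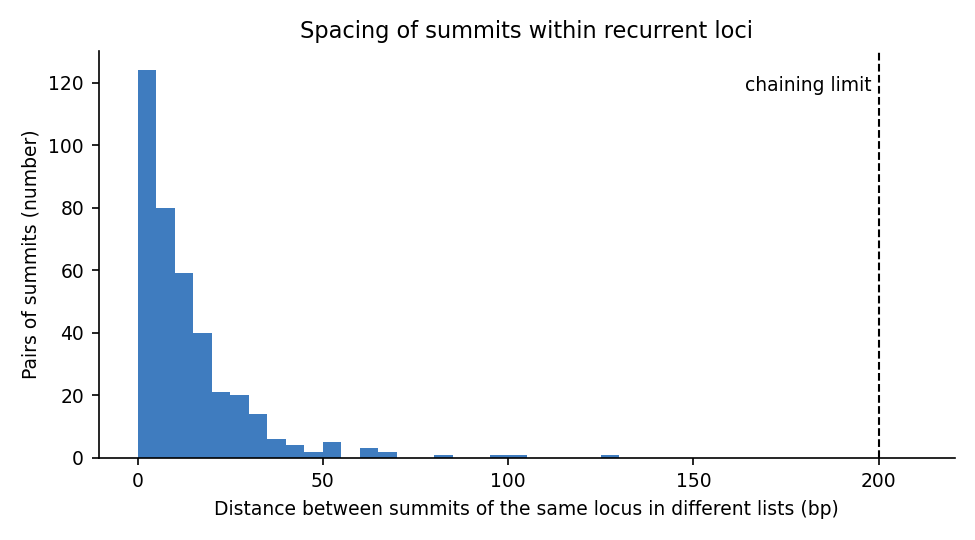
Distance in bp between summits of the same locus in different lists (x axis, bins of 5 bp) and the number of summit pairs (y axis, 384 in all), with the chaining limit of 200 bp as a dashed line. The distances gather near 0, with a median of 8 bp, and none lies beyond 125 bp.

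Within the L1 element the recurrent loci gathered in ORF2. Of the 192 loci on the element, 155 (80.7%) had their summit in ORF2, 20 (10.4%) in the 3′ end, 12 (6.25%) in ORF1 and 5 (2.60%) in the region 5′ of ORF1. Loci from 1 list gave 68.5% in ORF2, 16.0% in the 3′ end, 12.5% in ORF1 and 3.11% in the 5′ region. For comparison, ORF2 made up 52.7% of the element and 57.1% of all genomic bases matching it at 95% identity, the 3′ end 17.4%, ORF1 10.6% and the 5′ region 14.5%. Of genomic bases matching at 80% identity, the limit used to place loci on the element, ORF2 made up 57.6%, the 3′ end 22.7%, ORF1 11.7% and the 5′ region 7.52%. The 5′ region of L1 holds tandem monomers, which can match the element several times, so its shares of genomic matches may be counted high. The element lay on the plus strand of the chromosome at 95 loci and on the minus strand at 97.

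The loci occupied 84 of the 146 bins of 50 bp along the element, from position 669 to 7047, with a median at 4784. The fullest bin, positions 6401 to 6450 near the end of ORF2, held 8 recurrent loci and 4 from 1 list. These 8 lay on chromosomes 1, 3, 5, 11, 12, 16, X and Y. Positions 4301 to 4350 and 3451 to 3500 held 6 recurrent loci each. Of the 192 loci, 97 had another recurrent locus within 10 bp on the element. Across the 37 bins of 200 bp the numbers of recurrent and of single-list loci had a Spearman's rho of 0.722, and recurrent loci and genomic matches at 95% identity one of 0.611. Both are descriptions, since the bins share base composition and copy number.

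**Figure D4:**
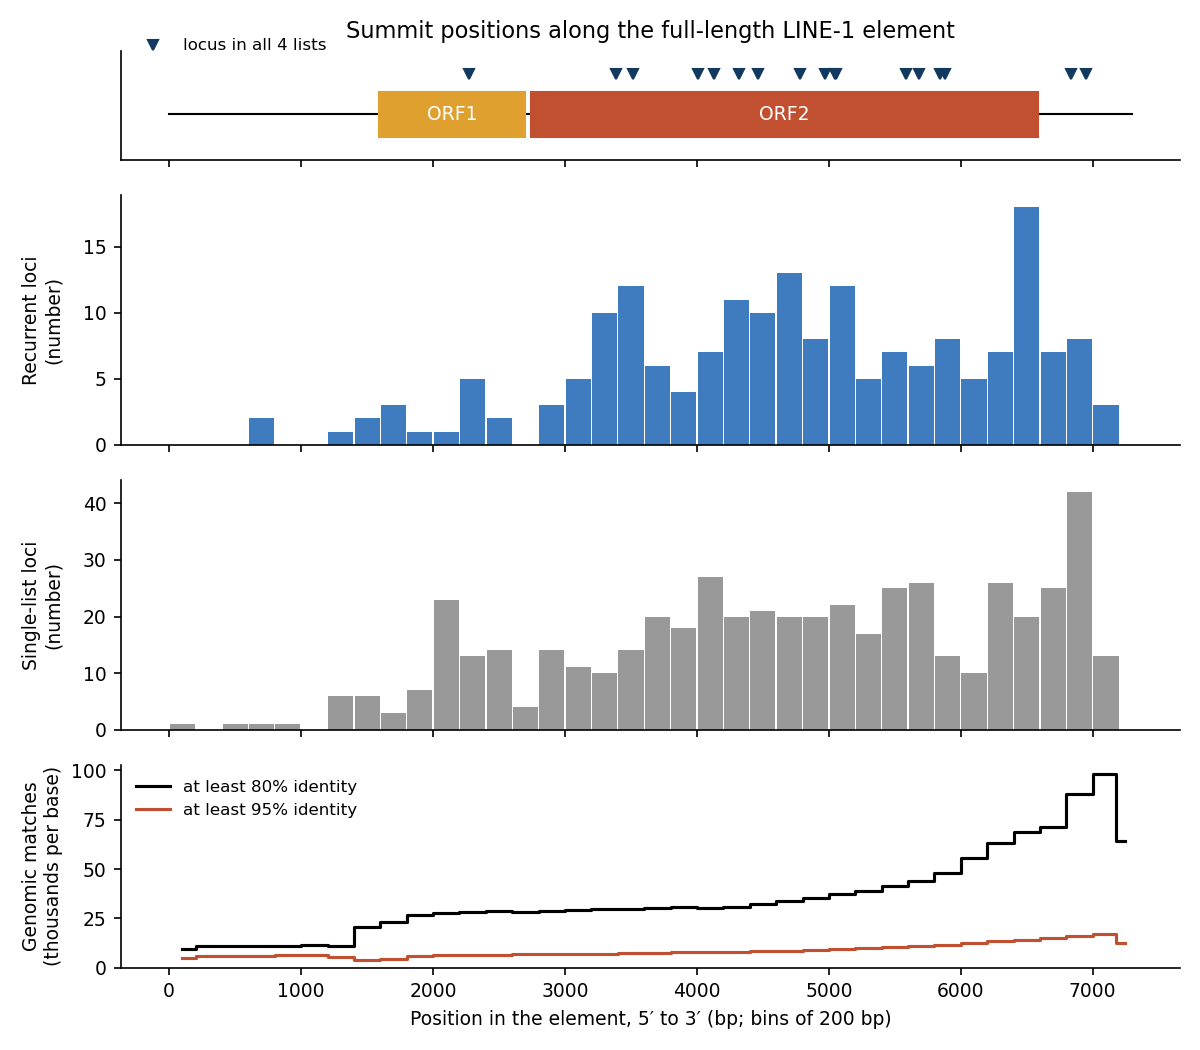
Positions along the L1 element (x axis, bp, bins of 200 bp), with ORF1 and ORF2 and the 17 loci of all 4 lists at the top, then the number of recurrent and of single-list loci per bin, and genomic matches per base at 80 and 95% identity. ORF2 holds 80.7% of the recurrent loci on the element.

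Nearly every recurrent window resembled very many other places in the genome. A copy was counted for each match elsewhere in the genome at 95% identity or more over at least 60% of the window. At least 1 copy was found for 200 of 201 recurrent loci (99.5%) and for 547 of 563 single-list loci (97.2%). The recurrent loci had a median of 12769 copies (quartiles 9493 and 16685, highest 35600) and the single-list loci a median of 12301. At 98% identity the medians were 3620 and 3626. Of the LIF summits, 1071 of 1088 had no such copy, and none had 1000 or more. The Stat3 locus was the only recurrent locus with 0 copies.

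**Figure D5:**
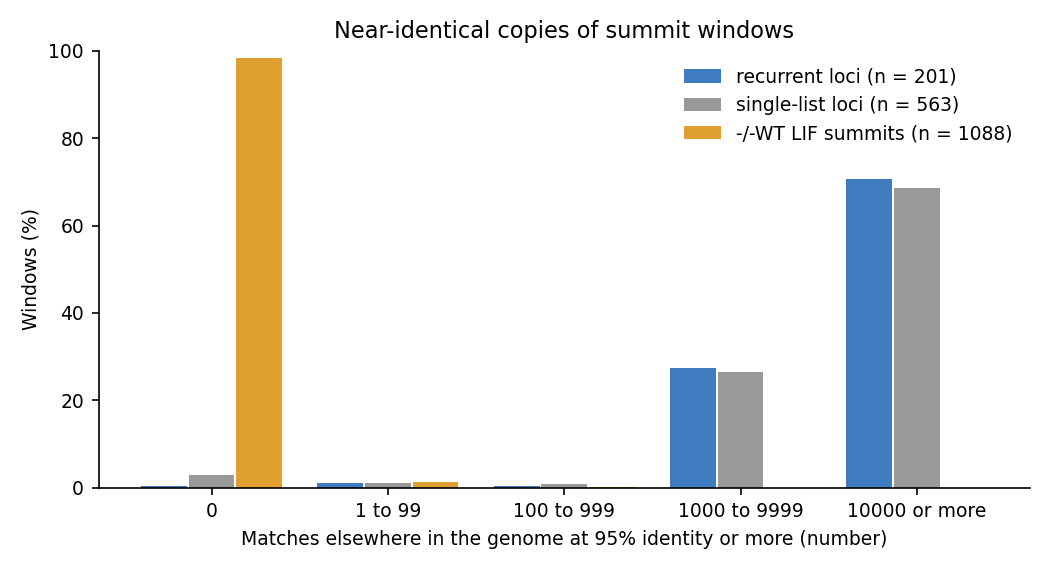
Share of summit windows in percent (y axis) by the number of matches elsewhere in the genome at 95% identity or more (x axis), for 201 recurrent loci (blue), 563 single-list loci (grey) and 1088 LIF summits (yellow). Of the recurrent loci, 70.6% had 10000 copies or more, while 98.4% of the LIF summits had none.

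The 17 loci found in all 4 lists were all on the element, 14 in ORF2, 1 in ORF1 and 2 in the 3′ end. Their summits spanned 3 to 66 bp, with a median of 14 bp. Their scores had a median of 14.9 (4.78 to 49) in -/-WT basal, 23.3 (9.91 to 62.6) in -/-WT peroxide, 17.2 (6.64 to 39.7) in -/-C3S basal and 14.3 (4.96 to 47.8) in -/-C3S peroxide. In each list they thus covered a wide range of scores.

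Bases around the summit of 14 of these loci, those in the reading frames and with a printed sequence, are given as 61 bases in the sense direction of the element, ordered by position in it. Capitals mark bases that differ from the chromosome 6 element. They are shown because these are the sites called in every condition without LIF.
Vmn2r104 locus, chr17:20023421-20023481, plus strand, ORF1: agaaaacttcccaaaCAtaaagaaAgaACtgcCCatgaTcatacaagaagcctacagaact
Bpifa5 locus, chr2:154176131-154176191, plus strand, ORF2: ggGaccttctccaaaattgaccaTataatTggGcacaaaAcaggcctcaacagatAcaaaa
Gm24394 locus, chr14:36543179-36543239, minus strand, ORF2: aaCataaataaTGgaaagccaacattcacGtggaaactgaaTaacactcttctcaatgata
Naip5 locus, chr13:100237545-100237605, plus strand, ORF2: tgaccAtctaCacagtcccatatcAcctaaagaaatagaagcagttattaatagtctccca
Gm48417 locus, chr12:63573409-63573469, plus strand, ORF2: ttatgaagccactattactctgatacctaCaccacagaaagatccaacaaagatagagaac
Gm2021 locus, chr7:39686609-39686669, minus strand, ORF2: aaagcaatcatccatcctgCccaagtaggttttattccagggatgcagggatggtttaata
Pgk2 locus, chr17:40214272-40214332, minus strand, ORF2: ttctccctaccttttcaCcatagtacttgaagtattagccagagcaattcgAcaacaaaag
Gm5209 locus, chr14:113812872-113812932, minus strand, ORF2: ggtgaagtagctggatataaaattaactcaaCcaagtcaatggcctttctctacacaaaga
Nudc-ps1 locus, chr8:29656731-29656791, plus strand, ORF2: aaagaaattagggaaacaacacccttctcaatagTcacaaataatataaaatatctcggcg
Gm12820 locus, chr4:112105650-112105710, minus strand, ORF2: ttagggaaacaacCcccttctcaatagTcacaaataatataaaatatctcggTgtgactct
Gm47517 locus, chr9:8472720-8472780, plus strand, ORF2: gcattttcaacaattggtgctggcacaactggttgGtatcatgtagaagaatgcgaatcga
Gm49052 locus, chr14:83551267-83551327, plus strand, ORF2: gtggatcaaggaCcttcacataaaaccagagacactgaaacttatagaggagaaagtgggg
Rab28 locus, chr5:41592467-41592527, plus strand, ORF2: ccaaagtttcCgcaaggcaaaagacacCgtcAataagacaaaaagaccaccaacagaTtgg
Gm14740 locus, chrX:82537060-82537120, plus strand, ORF2: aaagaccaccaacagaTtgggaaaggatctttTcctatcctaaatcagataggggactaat

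These windows differed from the element at 1 to 8 bases, with the most at the Vmn2r104 locus, the only one in ORF1. The Nudc-ps1 and Gm12820 loci, on chromosomes 8 and 4, covered nearly the same stretch of ORF2.

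Each locus carries the name of the gene whose start site was closest, which says nothing of a link between them. The Rab28 locus, 35.0 kb from the start of a gene for a small GTPase, scored 49, 62.6, 38.3 and 47.8 in -/-WT basal, -/-WT peroxide, -/-C3S basal and -/-C3S peroxide (ranks 3, 3, 5 and 2). The Gm2021 locus, 23.6 kb from a processed pseudogene, scored 36.9, 57, 39.7 and 43.7 in the same order. The Gm24394 locus, 68.9 kb from a snoRNA gene, scored 28.1, 40.0, 30.3 and 38.6. These 3 loci were among the best 10 of every list, except Gm24394 in -/-WT peroxide (rank 12).

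Other loci of all 4 lists ranked high in some lists only. The Gm49052 locus ranked 7 in -/-WT basal (31.4) and 78 in -/-C3S peroxide (14.3), with 23.3 in -/-WT peroxide and 18.5 in -/-C3S basal. The Gm48417 locus, in the exon of a processed pseudogene, scored 25.2 and 36.9 in the -/-WT lists (ranks 12 and 18) and 13.7 and 15 in the -/-C3S lists (ranks 40 and 74). The Gm14740 locus, 412 kb from the start of Dmd, the dystrophin gene, scored 26.6 and 30.8 in the -/-WT lists (ranks 11 and 27) and 7.61 and 13.2 in the -/-C3S lists (ranks 102 and 96). Relative to the length of the lists, Gm48417 and Gm14740 thus ranked better in both -/-WT lists than in both -/-C3S lists. With 1 list per condition these differences have no replicate check.

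Other loci stood out in a single list. The Bpifa5 locus, 13.6 kb from a gene of the BPI-fold family, ranked 10 in -/-C3S basal (23.7) and 58, 72 and 83 in -/-WT basal (14.9), -/-WT peroxide (20.6) and -/-C3S peroxide (13.8). The Gm47517 locus, 3.52 kb upstream of a processed pseudogene, ranked 164 in -/-WT basal (7.82). It ranked 43, 16 and 39 in -/-WT peroxide (25.1), -/-C3S basal (19.6) and -/-C3S peroxide (19.8). The Pgk2 locus, 5.66 kb upstream of the gene for the testis phosphoglycerate kinase, ranked 18 in -/-C3S basal (18.5) and 193 in -/-WT peroxide (12.4), with 14.2 in -/-WT basal and 13.5 in -/-C3S peroxide. No list thus ranked highest at all of the shared loci.

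The Nudc-ps1 locus scored 15.9, 27.9, 24.3 and 19 in -/-WT basal, -/-WT peroxide, -/-C3S basal and -/-C3S peroxide, and the Gm5209 locus 17.9, 24.9, 17.2 and 17.7. The Gm12820 locus, in an intron of Skint4, scored 14.3, 22.1, 12.1 and 13.5. Relative to the length of the lists, Nudc-ps1 ranked best in -/-C3S basal (rank 9) and -/-WT peroxide (rank 32). The Naip5 locus, in an intron of the gene for a flagellin sensor of the inflammasome, scored 11.1, 9.91, 11.8 and 12.1. The Gm48054 locus in the 3′ end of the element scored 12.5, 10.5, 9.43 and 11, and the Vmn2r104 locus, 19.2 kb from a vomeronasal receptor gene, 4.78, 12.4, 10.3 and 15.5. The Gm22814 locus, in an intron of Camk4, a calcium/calmodulin-dependent kinase gene, scored 8.66, 17.0, 6.64 and 5.26 (ranks 153, 113, 115 and 191). The lowest mean percentile of the 17 was that of the Trpc5os locus, 4.12 kb upstream of its start and within Trpc5, a calcium-permeable channel gene on the X chromosome, with 10.1, 9.91, 7.61 and 4.96.

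The 10 recurrent loci with the best mean percentile were all on the element, 9 of them in ORF2, and 3 of them (Rab28, Gm2021 and Gm24394) were in all 4 lists. All 10 were in the -/-WT peroxide list and 8 in the -/-WT basal list. Of all 201 recurrent loci, 168 and 132 were in these lists. After Gm28905 and Mug-ps1 came the Zkscan2 locus (chromosome 7, 123626740), the only one in the 3′ end, with 64.7 in -/-WT basal, 47.9 in -/-WT peroxide and 40.2 in -/-C3S basal (ranks 2, 7 and 3). The Gm47756 locus, 4.55 kb upstream of a start on chromosome 14, scored 38.9, 41.7 and 46.3 in -/-WT basal, -/-WT peroxide and -/-C3S peroxide. Both were absent from 1 list, -/-C3S peroxide and -/-C3S basal in this order, although they ranked 9 or better in each of the others.

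The remaining members of the 10 were the Gm7931 locus on chromosome 5, with 44.3 in -/-WT peroxide and 30.4 in -/-C3S peroxide, and the 4930548J01Rik locus on chromosome 17, with 37.5 in -/-WT basal and 34.0 in -/-WT peroxide. The Cnga2 locus on the X chromosome, 112 kb from the gene for a subunit of the olfactory cation channel, scored 29.7, 33.9 and 27.4 in -/-WT basal, -/-WT peroxide and -/-C3S peroxide. Of the 10 loci, 7 were intergenic, near the 67.7% of all recurrent loci. A locus could thus be among the best of several lists and be missing from another.

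Only 9 recurrent loci lay off the element, and they were mostly of lower rank. Of these, 5 had at least 1000 copies elsewhere: the loci at Olfr784 (1528), Mrgpra2b (2682), Hspa14 (1541), Gm23900 (1291) and Amd-ps4 (5792). Their scores ran from 4.76 at Amd-ps4 in -/-C3S basal to 15.9 at Mrgpra2b in -/-WT basal. The Cyp2c53-ps locus on chromosome 19 had 9 copies and scored 6.14 in -/-WT basal and 12.9 in -/-WT peroxide. The Gm10060 locus (chromosome 8, 19760093), with 189 copies and 43.0 kb from a gap in the assembly, scored 5.86 in -/-WT basal and 6.19 in -/-C3S basal.

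The Stat3 locus stood apart, at the promoter of the gene whose product was precipitated. Its summits were at 100939758 on chromosome 11 in -/-WT basal (score 16.4, rank 48 of 230) and at 100939786 in -/-WT peroxide (12.3, rank 203 of 450), 0.218 kb upstream of the start site, and neither -/-C3S list had a summit within 200 bp. LIF-treated cells had a summit at 100939791, 5 bp from the peroxide summit and 33 bp from the basal one, and its score of 144 was the highest of the 1088 LIF summits (rank 1). The window held no exact SIE (TTCCNGGAA) but 1 site with 1 mismatch, shown in capitals in the reference sequence of the plus strand, since it is the only recurrent window free of near-identical copies.
Stat3 locus, chr11:100939678-100939838, plus strand: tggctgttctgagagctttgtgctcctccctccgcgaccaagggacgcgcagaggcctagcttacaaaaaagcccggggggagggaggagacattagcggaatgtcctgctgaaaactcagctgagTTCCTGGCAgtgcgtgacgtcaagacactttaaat

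The capitals mark TTCCTGGCA at chr11:100939804-100939812. Of the genes that the study examined by ChIP, only Stat3 had a recurrent locus close by. The nearest one to Junb, an AP-1 subunit, was 367 kb away, although a summit of 1 list lay 2.14 kb from its start. Those nearest to Socs3, a feedback inhibitor of cytokine signals, Csf1, a macrophage growth factor, and Fos, an AP-1 subunit, were 6515, 11600 and 21443 kb away.

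A second recurrent locus coincided with a LIF summit. It lay in an intron of Camk2b, a calcium/calmodulin-dependent kinase gene, with summits at 6006426, 6006421 and 6006424 on chromosome 11 in -/-WT peroxide (5.48), -/-C3S basal (7.57) and -/-C3S peroxide (17.3), and a LIF summit (score 6.95, rank 724 of 1088) 1 bp from the first of these. The window was wholly masked and had 65 copies elsewhere. It is printed, with no capitals, as a repeat off the element at which both sets of lists had summits. The cells carried MSCV vectors, and the window was not compared with vector sequence. Whether reads from the vectors contributed to these summits was not tested.
Camk2b locus, chr11:6006344-6006504, plus strand: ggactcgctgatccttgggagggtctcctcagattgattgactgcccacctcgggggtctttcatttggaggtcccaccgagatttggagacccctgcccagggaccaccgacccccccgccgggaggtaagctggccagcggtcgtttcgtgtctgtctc

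With a LIF summit within 200 bp at 2 of 201 recurrent loci (0.995%) and 3 of 563 single-list loci (0.533%), the shares were close to the 0.654% of all 764 loci. The 2-sided Fisher's exact test of this difference had an adjusted p of 0.978.

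Features that the rule did not use were compared between recurrent and single-list loci with 2-sided Fisher's exact tests, adjusted over 8 tests with the Benjamini-Hochberg method, and none passed 0.05. The wholly masked share was 99% (exact interval 96.5 to 99.9%) against 96.1% (94.1 to 97.5%), with an adjusted p of 0.225 by the exact test. Having a near-identical copy had the same adjusted p of 0.225 by the exact test, with 99.5% (97.3 to 100.0%) against 97.2% (95.4 to 98.4%). A tandem repeat with a period up to 60 bp was found in 0 of 201 windows, which allows a share of up to 1.49%, and in 1 of 563. These intervals cover counting error only, and windows of the same repeat family are not independent.

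Motifs named in the study were found in few windows. The SIE was in 0 of 201 recurrent windows, which allows a share of up to 1.49%, in 1 of 563 single-list windows and in 0.399% of genomic tiles of the same width (both strands). The AP-1 motif TGANTCA was in 4 recurrent windows (1.99%, exact interval 0.545 to 5.02%), in 27 single-list windows (4.80%) and in 4.78% of tiles, with an adjusted p of 0.258 by the exact test between the loci. The 4 were those at Dnm3, Gm23902, Naip5 and Gm22814, all with summits in the same stretch of the element, positions 4012 to 4132. The motif AGGNNNAGG was in 11 recurrent windows (5.47%, exact interval 2.76 to 9.58%), 36 single-list windows (6.39%), 6.15% of all 764 loci and 13.0% of tiles. Its adjusted p was 0.979 by the exact test between the loci. The study describes AGG-like sequences at many of the intergenic peaks of unstimulated cells, and its promoter scan allowed mismatches in the SIE. Only exact patterns were counted in these shares, so they are not measured as in the study. The windows had a median GC content of 39.1%, against 39.8% in single-list loci, 50.9% at LIF summits and 41.7% of all bases, and the part of base composition in these shares was not tested.

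Recurrent loci lay mainly away from genes. There were 136 in intergenic sequence (67.7%, exact interval 60.7 to 74.1%), 52 in introns (25.9%), 12 in promoters (5.97%), taken as 5 kb upstream to 0.5 kb downstream of an annotated start, and 1 in an exon. Of positions across the genome, assembly gaps included, 49.4% were intergenic, 33.6% intronic, 14.2% in promoters and 2.80% exonic. How the element's own genomic matches are spread over these classes, or over chromosomes, was not counted. Location is thus not set against that of the repeat itself. Single-list loci were 70.3% intergenic, a difference with an adjusted p of 0.953 by Fisher's exact test. The median distance to the nearest start site was 26.7 kb for any gene and 117 kb for a protein-coding gene. Of the recurrent loci, 105 (52.2%) were over 100 kb from a protein-coding start. Single-list loci lay farther away, with medians of 31.2 and 167 kb and 344 of 563 (61.1%) over 100 kb from a protein-coding start. The difference in distance was not tested.

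Apart from Stat3, the 12 promoter loci were all on the element, and 6 of them lay at the start of a gene not annotated as protein-coding. The protein-coding ones were Lipi, a lipase (2.86 kb upstream, 26.9 in -/-WT basal and 15.4 in -/-C3S basal), Glrx2, a mitochondrial glutaredoxin (4.61 kb upstream, 19.8 in -/-WT peroxide and 14.5 in -/-C3S basal), and Fmn2, an actin nucleator (3.49 kb upstream, 16.4 in -/-WT peroxide and 12.7 in -/-C3S peroxide). The Lipi and Fmn2 loci lay within these genes, upstream of a transcript start inside the gene. Gm17631 (1.84 kb upstream) and Trpc5os were also annotated as protein-coding. Those 6 were at Gm47756, Gm47517, Gm23902, Gm45558, Gm25256 and Gm15243. The Gm25256 locus, 0.306 kb downstream of a snRNA start on chromosome 10, was the only one of the 12 inside the transcribed side of the promoter.

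The neighbouring genes were of many kinds, with 192 different protein-coding genes nearest to the 201 loci. No recurrent locus had one of the study's list of oxidant-responsive genes as its nearest annotated gene. At 4 recurrent loci (nearest to Pcdh19, Etv1 and, at 2 loci, Fam181b) one was the nearest protein-coding gene, at 76.6 to 1778 kb. Of the 563 single-list loci, 1 had such a gene as its nearest annotated gene and 6 as the nearest protein-coding gene. Such genes made up 0.802% of protein-coding genes. Counts this small were not tested and show neither an absence nor an excess. Olfactory and vomeronasal receptor genes were nearest to 12 loci and made up 6.67% of protein-coding genes. By chromosome, the X chromosome had the most loci, 19 (11.6 per 100 Mb), followed by chromosome 1 with 17 (8.86 per 100 Mb). Chromosome 14, with 13, had 10.7 per 100 Mb, and chromosome Y, with 2, had 2.27 per 100 Mb. Single-list loci on the X chromosome were 8.88% of their total, against 9.45% of the recurrent loci. Recurrent loci were a median of 8749 kb from the next one, with 20 neighbouring pairs within 1000 kb and the closest, on chromosome 9, 8.16 kb apart.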

How the data were processed

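Paired-end reads were mapped by the authors to mm10, and peaks were called from the replicates of each condition jointly. Peaks were kept where read depth exceeded IgG, and were deposited as 5 lists of summits. For -/-WT basal and LIF peaks the study states a minimum fold of read depth over IgG. The submitters' processing notes name HISAT2, Picard and MACS2. Each summit has a score, deposited by the authors in the fifth column, whose unit is not given in the sources used here. The study refers to unique reads without saying how reads matching several places were placed, and the lists hold no depth.

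Members and lists were chosen with earlier results of these data known. Windows reached 80 bp either side of the best-ranked summit of a locus, on GRCm38 (patch 6). Copies were found with BLAST 2.17.0 in the primary assembly. The element's ends were set where fewer than 5000 genomic matches covered a position. Genes are those of GENCODE M21. Tests, tested on simulated data first, used SciPy 1.17.1 (Python 3.11.15, NumPy 2.4.6, Biopython 1.88, matplotlib 3.10.9).

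Described one by one were loci of all 4 lists, the 10 with the best mean percentile, those with a LIF summit and those in promoters or exons. No sequence is printed for 1 locus of all 4 lists on chromosome 18 and for 2 in the 3′ end of the element. One gene covered by the rule is left out. Alternatives were other chaining gaps, lists left out, window widths, identities, motif mismatches and gene sets.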

Additional observations from a re-analysis of the deposited data

How the results depend on the processing

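The number of recurrent loci depended on the lists and peaks used: it was 103 with the higher-scoring peaks of each list only, 123 without the -/-WT basal list, 95 without the -/-WT peroxide list and 66 where 3 or more lists were needed. Fewer summits entered in the first 3 cases. With other chaining gaps from 50 to 1000 bp it was 194 to 203. The intergenic share was 1.09 points higher, not lower, in recurrent than in single-list loci with protein-coding genes only. With windows of 150 bp either side, the SIE was 0.142 points and AGGNNNAGG 1.46 points higher in recurrent loci, not lower. None of these differences passed the test. In the alternative added after the data were seen, 80.1% of recurrent loci matched the element at 95% identity. Of 60 alternatives, 52 changed no direction and no call, and moved no count of loci by over 1.5 times and neither the rank correlation, the spacing nor the element share beyond its 95% interval.

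No paired analysis was possible because both replicates of a condition had been called together into 1 list, and for the same reason no replicate was left out. The depth behind each peak is unknown, and the LIF libraries had more unique reads than the others.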
